A study of Mus musculus with 5 samples.

Results

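The regulators of plasma cell differentiation described here are the transcription factor genes Prdm1, Irf4 and Xbp1, the elongation factor genes Ell2 and Eaf2, the surface genes Sdc1 and Tnfrsf17, and the J chain gene Jchain. They were chosen by name from the 38924 rows of the deposited table. The 9 names of the rule met 8 genes, because Igj is the older name of Jchain. RNA was sequenced from germinal center B cells that were sorted as eGFP+ cells from the spleens of 12-week-old mice at day 7 after immunization with sheep red blood cells. The DKO group (2 libraries) carried floxed alleles of Relb and of Nfkb2 together with Cγ1-Cre, and the WT group (3 libraries) was made up of littermates that carried Cγ1-Cre without floxed alleles named in the labels. Cγ1-Cre acts once a B cell transcribes its IgG1 constant region, so both groups carried the recombinase and cells before that step kept both genes. Nothing in the labels says whether a library came from 1 mouse or from a pool. The p-values set a difference against the spread between these libraries, which is estimated partly from other genes.

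A germinal center B cell becomes a plasma cell by shutting down the B cell program and opening a secretory one. IRF4 starts this switch, BLIMP1 (the product of Prdm1) represses the genes that keep B cell identity, and XBP1 expands the endoplasmic reticulum and its folding machinery. ELL2 directs the processing of heavy chain transcripts toward the secreted form of the antibody, the J chain joins IgM and IgA into polymers, and syndecan 1 (Sdc1) and BCMA (Tnfrsf17) mark the finished cell. RELB and p52, the products of the floxed genes, act downstream of CD40 and of the BAFF receptor, and bind κB motifs in DNA.

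The upstream regions of 4 members are shown because Prdm1, Irf4 and Xbp1 had the largest log2 differences below 0 among the members tested and Eaf2 had the only one above 0. Each is the 250 bases before a RefSeq transcript start in GRCm38.p6, which is not the mm9 build the submitters name. Capitals mark each match, on either strand, to a κB-like motif, GGG and CC with any 5 bases between them.
Prdm1: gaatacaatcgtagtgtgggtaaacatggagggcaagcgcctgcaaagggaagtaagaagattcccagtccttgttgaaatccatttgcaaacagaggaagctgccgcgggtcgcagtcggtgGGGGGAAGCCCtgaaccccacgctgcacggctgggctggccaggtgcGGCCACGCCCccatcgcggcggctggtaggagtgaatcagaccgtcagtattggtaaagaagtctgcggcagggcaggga
Irf4: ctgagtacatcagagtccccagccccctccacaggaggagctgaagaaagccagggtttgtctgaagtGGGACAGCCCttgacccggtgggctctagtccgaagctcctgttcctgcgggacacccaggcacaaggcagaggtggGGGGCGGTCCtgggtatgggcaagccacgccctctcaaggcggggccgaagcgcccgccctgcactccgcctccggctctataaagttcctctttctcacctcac
Xbp1: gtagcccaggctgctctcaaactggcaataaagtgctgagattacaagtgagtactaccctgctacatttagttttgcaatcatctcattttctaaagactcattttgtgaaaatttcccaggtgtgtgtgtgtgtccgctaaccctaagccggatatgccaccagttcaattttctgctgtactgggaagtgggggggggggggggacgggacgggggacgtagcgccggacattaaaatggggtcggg
Eaf2: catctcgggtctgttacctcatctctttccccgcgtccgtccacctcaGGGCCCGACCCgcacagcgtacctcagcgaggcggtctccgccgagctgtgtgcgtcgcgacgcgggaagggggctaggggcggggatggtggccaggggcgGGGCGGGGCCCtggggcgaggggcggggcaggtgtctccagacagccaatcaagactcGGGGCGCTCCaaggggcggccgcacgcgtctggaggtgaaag
The Prdm1 region lies at chr10:44458749-44458998, minus strand. The Irf4 region lies at chr13:30748983-30749232, plus strand, and the Xbp1 region at chr11:5520391-5520640, plus strand. Eaf2 has 3 annotated starts, and the region shown, at chr16:36828260-36828509, minus strand, is the only one of them with a match. Matches began at 3 positions for Prdm1, 2 for Irf4 and 5 for this Eaf2 start, some of them overlapping, and at none for Xbp1. The same letters occurred in 45.8% of 32851 upstream regions of the same length, so a match here is common. Of the other members, Sdc1 had 5 matches and Ell2 had 2, while Jchain and Tnfrsf17 had none. A BLIMP1-like motif, GAAAGT, occurred in 12.3% of regions and among the members only before Tnfrsf17, where it had 2 matches. That region also held the only match among the members to an interferon factor motif, GAAA repeated after any 2 bases, which 2.98% of regions contain. The core of the unfolded protein response element, CCACGT, is in 6.91% of regions and matched before none of the members.

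Libraries held 35.2 and 48.2 M reads in DKO and 34.0 to 57.6 M in WT, of which 17.6 to 17.7 M in DKO and 15.4 to 15.5 M in WT lay outside the mitochondrial genome. Relb kept 40.2% and 7.59% of its WT mean in DKO replicates 1 and 2, and Nfkb2 kept 52.5% and 13.0%. None of the 5 B cell markers and none of the 10 germinal center markers was at 0. Of these, 4 of the 5 and 9 of the 10 had lower means in DKO (median log2 difference −0.16 and −0.14). Over all genes tested, 49.95% had lower means. With any 1 library left out, lower means numbered between 3 and 5 of the 5 and between 5 and 9 of the 10. With 1 library left out the median of the B cell markers lay between −0.25 (without DKO replicate 1) and −0.04 (without WT replicate 3), and that of the germinal center markers between −0.31 (without DKO replicate 2) and −0.07 (without DKO replicate 1). Among them Rgs13, a regulator of G protein signaling in germinal center cells, was at 1476 and 1990 normalized counts in DKO and at 8381, 3777 and 4727 in WT (−1.63 on the log2 scale, adjusted p = 0.768, limma), and was named after its values were seen. WT replicate 2 and DKO replicate 1 stood apart by transcripts of other lymphocytes. The summed level of 17 T cell markers was 1391 to 2287 normalized counts in DKO and 1477 to 2988 in WT, of which Cd2, a gene that B cells also transcribe, made up most in every library except WT replicate 2. Without Cd2, a sum added after the values were seen, the other 16 came to 768 and 162 in DKO replicates 1 and 2 and to 135, 1597 and 75.0 in WT replicates 1 to 3. The summed level of 8 naive and follicular B cell markers was 17484 to 36917 in DKO and 16533 to 36290 in WT. Relative to its average over the 5 libraries, the mean log2 level of the T cell list was 1.42 and −0.73 in DKO replicates 1 and 2 and −0.90, 2.13 and −1.91 in WT replicates 1 to 3. The summed levels of 8 NK cell markers (23.1 to 109 in DKO, 5.77 to 366 in WT), 13 myeloid markers (884 to 1570 in DKO, 355 to 1712 in WT) and 6 erythroid markers (29.7 to 148 in DKO, 18.6 to 23.1 in WT) were smaller than that of naive B cell markers in every library. In WT replicate 3 the T cell genes Cd6, Bcl11b, Trbc1, Trbc2 and Cd8b1 were at 0, and in DKO replicate 2 Cd3g was.

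None of the members passed the test of DKO against WT. The floxed genes did not pass it either: Relb was at −2.43 and Nfkb2 at −1.91 on the log2 scale (limma, adjusted p = 0.823 for each). In limma 0 of the 7 members tested had an adjusted p under 0.05, where 0% of 13242 genes did. EdgeR and DESeq2 on the recovered reads also passed 0 members, with 0% and 0.219% of all genes passing. At an unadjusted p under 0.05 limma and edgeR each counted 1 member (Eaf2, higher) and DESeq2 counted 2 (Eaf2 and Prdm1). The shares of all genes at this unadjusted level were 3.69% higher and 2.37% lower in limma, 3.36% and 2.29% in edgeR, and 3.78% and 3% in DESeq2. The other 6 members tested had lower means in DKO, and the 7 had a median log2 fold change of −0.24, beside 0.0013 over all genes tested. With 1 library left out that median lay between −0.42 (without WT replicate 2) and −0.20 (without WT replicate 1). Lower means then numbered 5 or 6 of the 7. Over all genes tested, with all 5 libraries, 49.95% had lower means. The groups did not overlap in 1 member that was higher, Eaf2, and in 1 that was lower, Xbp1, against 12.5% and 11% of all genes in these directions.

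**Figure D1:**
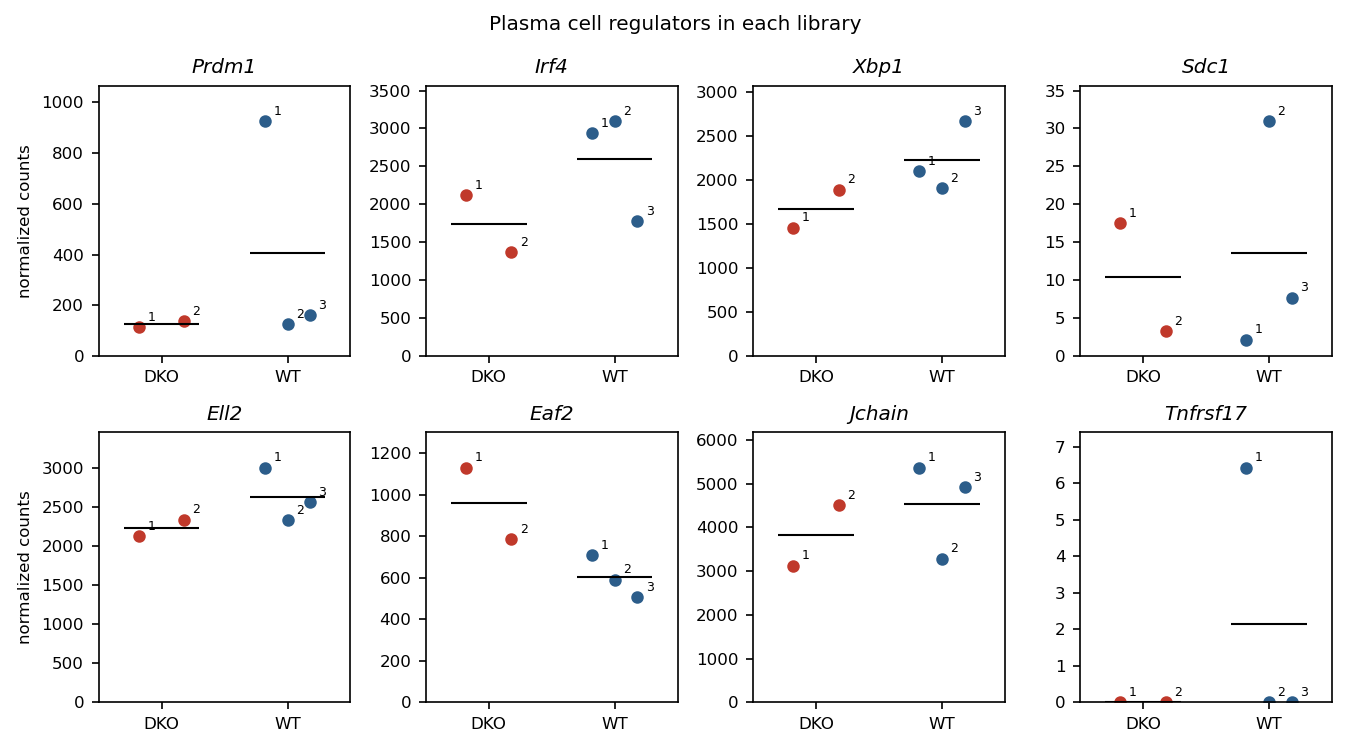
Normalized counts of each regulator (y axis, from 0, a scale per gene) in the DKO and WT libraries (x axis). Points are libraries with their replicate number and lines are group means. Prdm1 in WT replicate 1 stands at 926, and in the other 4 libraries it lies between 113 and 162.

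Per kilobase of annotated exon, the members spanned a wide range of levels. Jchain was the most abundant, with a mean of 1517 normalized counts per kilobase in DKO and 1798 in WT, and ranked 279 among 13064 tested genes with a known length. Xbp1 followed at 516 in DKO and 686 in WT per kilobase, then Irf4 at 356 and 531. Ell2 (227 in DKO, 268 in WT) and Eaf2 (219 in DKO, 138 in WT) were in a middle range. Prdm1 stood at 22.4 per kilobase in DKO and 72.6 in WT, and Sdc1 at 2.73 in DKO and 3.57 in WT. The order of neighbours was not fixed in single libraries: in WT replicate 2 Irf4 was at 631 and Xbp1 at 588 per kilobase. In WT replicate 1 Prdm1 was at 166 and Eaf2 at 163. Prdm1 was at 22.7 and 29.1 per kilobase in WT replicates 2 and 3. Eaf2 was above Ell2 in DKO replicate 1 only (259 against 216 per kilobase).

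Prdm1, the gene of BLIMP1, was low in every library except 1 of the WT group. It was at 113 and 137 normalized counts in DKO replicates 1 and 2, and at 926, 127 and 162 in WT replicates 1 to 3. WT replicate 1 was 5.70 times the next library, and both DKO values lay close to those of WT replicates 2 and 3, with which they overlapped. The log2 fold change of −1.10 ± 0.73 (SE) therefore rested on that library: without WT replicate 1 it was −0.20 (adjusted p = 0.946, limma), against an adjusted p of 0.877 with all 5 libraries. Without WT replicate 2 it was −1.63 (adjusted p = 0.583). In DESeq2 the log2 fold change was −1.69 with an unadjusted p of 0.0193 and an adjusted p of 0.568. The part of other cell types in the Prdm1 level was not tested. In sorted bulk cells, fewer cells of a type and less RNA per cell cannot be told apart.

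Irf4, the factor that drives both early activation and plasma cell entry, had a lower mean in DKO without a gap between the groups. It was at 2119 and 1373 normalized counts in DKO replicates 1 and 2, and at 2933, 3095 and 1781 in WT replicates 1 to 3. DKO replicate 2 was the lowest library, and DKO replicate 1 lay above WT replicate 3. Its log2 difference was −0.57 ± 0.29 (limma, adjusted p = 0.859), with a 95% interval of −1.24 to 0.10. Without DKO replicate 2 it was −0.25, and without DKO replicate 1 it was −0.88. With the level of T cell markers added to the model it was −0.67 (adjusted p = 0.527).

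Xbp1, the transcription factor of the secretory program, was lower in both DKO libraries by a small margin. It was at 1459 and 1891 normalized counts in DKO replicates 1 and 2, and at 2100, 1911 and 2669 in WT replicates 1 to 3. DKO replicate 2 and WT replicate 2 differed by 19.4 normalized counts, a gap smaller than the spread within either group. On the log2 scale the difference was −0.41 ± 0.23 (SE; limma, adjusted p = 0.864), with a 95% interval of −0.92 to 0.10. Without DKO replicate 1 it was −0.22, and without DKO replicate 2 it was −0.60. The table gives counts for the whole gene, and the spliced form that encodes the active factor was not counted separately.

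Ell2 and Eaf2, which bind each other and take part in transcription elongation, did not share a direction of difference. Ell2 was at 2123 and 2337 normalized counts in DKO replicates 1 and 2, and at 3002, 2334 and 2565 in WT replicates 1 to 3. The upper DKO value lay 2.75 above the lowest WT value, and the log2 difference was −0.23 ± 0.20 (limma, adjusted p = 0.885). Without WT replicate 1, its highest library, it was −0.14. Eaf2, a germinal center gene also known to promote apoptosis of these cells in mouse, was at 1131 and 787 in DKO replicates 1 and 2, and at 711, 591 and 505 in WT replicates 1 to 3. Both DKO values were above all WT values, the nearest pair being DKO replicate 2 and WT replicate 1. Its log2 fold change was 0.66 ± 0.25 (unadjusted p = 0.0284, adjusted p = 0.823, limma), with a 95% interval of 0.09 to 1.23 that is not corrected for the number of genes. Without DKO replicate 1 it was 0.40 (adjusted p = 0.9998), and without DKO replicate 2 it was 0.92 (adjusted p = 0.918).

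Any part of neighbouring genes in the Eaf2 count was not tested. In the GENCODE M21 annotation Eaf2 overlaps Iqcb1, a gene for a cilium protein on the opposite strand, and whether strand was used in the counting is not given in the sources used here, so reads of the overlap cannot be assigned. Iqcb1 was at 1185 and 1104 in DKO and at 1175, 833 and 973 in WT, or 0.22 ± 0.22 on the log2 scale (limma, adjusted p = 0.901). On the other side the next protein-coding gene is the peptide transporter gene Slc15a2, on the same strand as Eaf2. Slc15a2 averaged 1262 normalized counts in DKO and 228 in WT, or 2.65 ± 0.47 on the log2 scale (limma, adjusted p = 0.505). Golgb1, the next gene on the Iqcb1 side, had values of 5660 and 3949 in DKO that overlapped the 5052, 4007 and 1766 in WT. These neighbours were looked up after the values of Eaf2 had been seen.

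**Figure D2:**
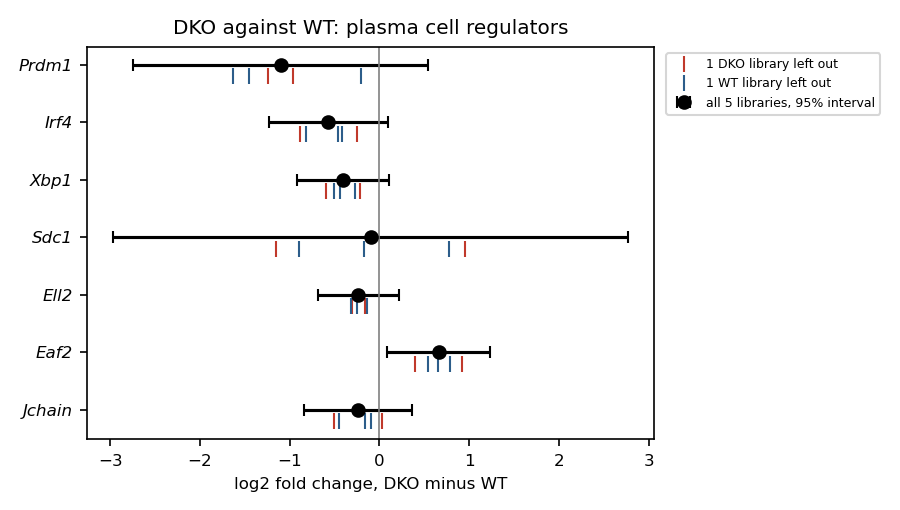
Log2 fold change of DKO minus WT (x axis) for the 7 regulators tested (y axis), with the limma 95% interval over all 5 libraries, unadjusted for the number of genes. Ticks show the value when 1 library was left out: that of Prdm1 moved to −0.20 without WT replicate 1, and those of Sdc1 lay on both sides of 0.

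Sdc1 and Tnfrsf17, the 2 surface genes among the members, were at or near the limit of detection. This did not hold for all genes used as plasma cell markers: Slamf7 averaged 4176 normalized counts in DKO and 4206 in WT. Sdc1 had 20 and 4 reads in DKO replicates 1 and 2, and 2, 30 and 8 reads in WT replicates 1 to 3. The highest 2 libraries, WT replicate 2 and DKO replicate 1, were those with the most T cell and naive B cell transcripts, and WT replicate 1, with the most Prdm1, had the fewest Sdc1 reads. Its log2 fold change was −0.10 ± 1.27 (adjusted p = 0.993, limma). The level of Sdc1 moved with the naive and follicular B cell list, which deviated by 0.82 and −0.75 in DKO and by −0.68, 1.18 and −0.57 in WT. The part of other lymphocytes in the Sdc1 reads was not tested.

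Tnfrsf17, the gene of the survival receptor BCMA, had 6 reads in WT replicate 1 and 0 reads in every other library of either group. With a mean of 1.28 normalized counts over the 5 libraries it was under the minimum mean of 10 for testing. A count of 0 allows up to 3 reads, or 2.63 and 2.48 normalized counts in DKO replicates 1 and 2 and 3.10 and 2.88 in WT replicates 2 and 3, by counting error alone. A difference between the groups was not detectable at this depth.

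Jchain was at 3128 and 4511 normalized counts in DKO replicates 1 and 2, and at 5365, 3289 and 4921 in WT replicates 1 to 3. DKO replicate 1 and WT replicate 2 were the lowest, so the libraries with more transcripts of other lymphocytes had the least Jchain in each group. Its log2 difference was −0.24 ± 0.27 (limma, adjusted p = 0.912). It was 0.0266 without DKO replicate 1 and −0.50 without DKO replicate 2, and −0.10 without WT replicate 1.

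The antibody gene list holds immunoglobulin constant region genes and Pigr, the receptor that carries J chain polymers across epithelia. It includes IgG genes, whose products the J chain does not polymerize. Of its 9 genes tested, 8 had a lower mean in DKO and 1 a higher one, where 49.95% of all genes had lower means. Their median log2 fold change was −0.90 beside 0.0013 over all genes. Lower means numbered 7 without DKO replicate 1, DKO replicate 2 or WT replicate 3. The median was −0.32 without DKO replicate 2 and −0.44 without WT replicate 2. None passed the adjusted threshold in limma. The groups did not overlap in Ighg2b, Ighg2c, Ighg3 and the light chain gene Igkc, 4 genes that were lower in DKO (44.4%, against 11% of all genes). They overlapped in Ighm and Igha, whose products are joined by the J chain. At an unadjusted p under 0.05 4 were lower (44.4%, against 2.37% of all genes). Ighg2c, an IgG constant region gene, was at 442 and 221 normalized counts in DKO and at 11580, 922 and 1207 in WT. Ighg2b was at 794 and 1463 in DKO against 6355, 1833 and 2080 in WT, and Ighg3 at 2474 and 4609 against 11226, 4772 and 7511. Igha, the constant region gene of IgA, was at 149 and 18.2 in DKO and at 1574, 163 and 136 in WT. WT replicate 1 was thus far above the other libraries in Ighg2c, Ighg2b and Igha. It was the highest library in 5 of the 9 genes, where it was so in 20.1% of all genes tested.

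**Figure D3:**
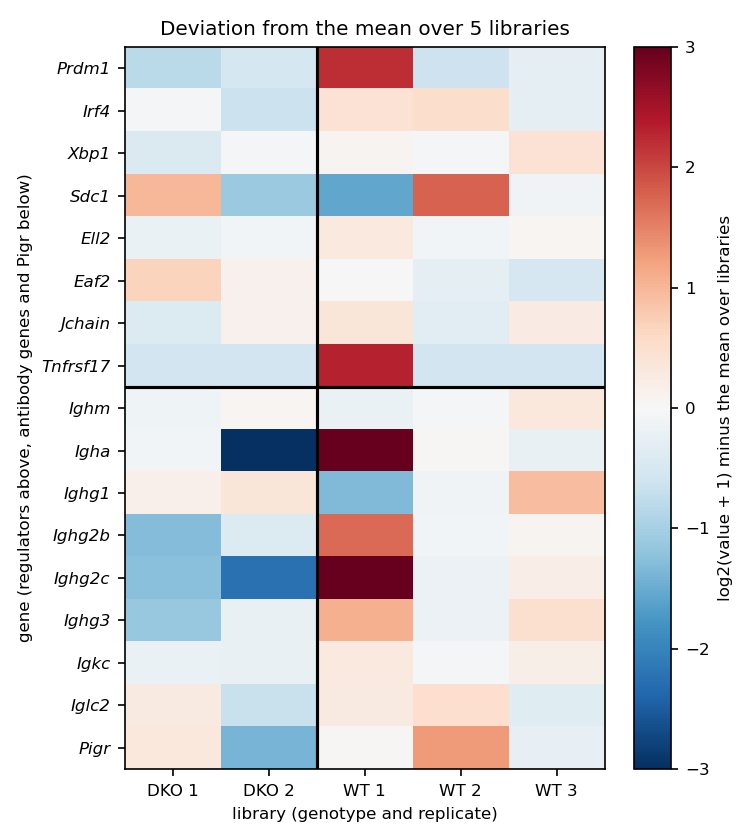
Log2(value + 1) minus the mean over the 5 libraries for the 8 regulators and the 9 genes of the antibody list, Pigr included (rows) in each library (columns). Colours are capped at 3 in either direction. WT replicate 1 is at 2.23 for Prdm1, 2.31 for Tnfrsf17 (6 reads) and −1.57 for Sdc1 (2 reads). The other regulators lie between −0.01 (Eaf2) and 0.44 (Irf4) in that library.

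Without WT replicate 1, 9 of these 9 genes had a lower mean in DKO. The log2 fold change of Ighg2c was then −1.75 in place of −2.90 (adjusted p = 0.742 and 0.823, limma), that of Ighg2b −0.86 in place of −1.42, and that of Igha −1.49 in place of −2.62. Without DKO replicate 1 it was −4.10 for Igha and −0.68 in place of −1.13 for Ighg3, and without DKO replicate 2 it was −1.13 for Igha. Ighm, the constant region of IgM, had 82998 and 93294 normalized counts in DKO and 77871, 87830 and 112004 in WT, and Ighg1 had 4821 and 5648 in DKO and 1739, 4037 and 8240 in WT. WT replicate 1 was the lowest library in Ighm and in Ighg1. Heavy chain constant genes resemble each other closely, and reads shared among them leave single genes uncertain.

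Genes that act against plasma cell fate divided in direction: of 11 tested, 6 had higher and 5 lower means in DKO, none passed, and the median log2 fold change was 0.05. The median was below 0 without DKO replicate 1 (−0.03), WT replicate 1 (−0.03) or WT replicate 3 (−0.08), and 0.10 and 0.01 without DKO replicate 2 and WT replicate 2. The groups did not overlap in 3 that were higher and 1 that was lower (27.3% and 9.09%, against 12.5% and 11% of all genes). Bach2, a repressor of Prdm1, averaged 24875 ± 607 normalized counts in DKO and 14832 ± 3186 in WT (SD, n = 2 and 3), or 0.77 ± 0.25 on the log2 scale (limma, adjusted p = 0.823). Pax5, the factor of B cell identity that BLIMP1 shuts off, was at 5764 and 5667 in DKO and at 4140, 5137 and 2432 in WT. Without WT replicate 3, its lowest library, the log2 fold change of Pax5 was 0.31 in place of 0.62. Spib, an ETS factor of B cells, was at 13586 and 11313 in DKO, below the 15184, 15402 and 18303 of WT. Foxo1, a forkhead factor of germinal center and resting B cells, was at 8574 and 8104 in DKO and at 7528, 7811 and 7193 in WT. Its log2 difference of 0.15 ± 0.19 had an adjusted p of 0.917 (limma). Irf8, which counteracts IRF4 in germinal center cells, was at 7667 and 7465 in DKO and overlapped with the 10528, 7027 and 11290 of WT, and Bcl6 averaged 10075 in DKO and 10928 in WT. The groups also overlapped in Ebf1 and Ets1, factors of the B cell program (log2 difference 0.14 and 0.05), in Id3, an inhibitor of E proteins (−0.37), in Ciita, the activator of MHC class II genes that BLIMP1 represses (0.06), and in Myb (−0.25). These small differences moved with single libraries: without DKO replicate 1 Ebf1 was at −0.03, Ciita at −0.11 and Myb at 0.01, without WT replicate 3 Ebf1 was at −0.08, Ets1 at −0.15 and Id3 at −0.10, and without WT replicate 1 Ciita was at −0.03. Mitf, known to hold down Irf4 in resting mouse B cells, was under the minimum for testing, at 11.4 and 9.91 in DKO and 19.3, 2.06 and 0.961 in WT.

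Other inducers of the fate, 20 genes tested, had 12 higher and 8 lower means, none of which passed, and their median log2 difference was 0.09, or 0.03 without DKO replicate 1. Jun, an AP-1 subunit, was at 119 and 266 normalized counts in DKO and at 112, 66.0 and 74.0 in WT (log2 fold change 1.11 ± 0.44, adjusted p = 0.823, limma). Without DKO replicate 2, its highest library, that value was 0.53, and without DKO replicate 1 it was 1.69. Rel, the c-Rel subunit of canonical NF-κB, was at 6490 and 5677 in DKO and overlapped with the 4538, 5794 and 3606 of WT. Atf6, a sensor of the unfolded protein response that induces Xbp1, was at 2751 and 2788 in DKO and at 2382, 2377 and 2114 in WT. Tcf3, the gene of E2A proteins, was at 3206 and 2810 in DKO, below the 3264, 3546 and 3880 of WT.

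Partners of ELL2 and EAF2 in the elongation complexes were divided too, with 13 higher and 16 lower means among 29 tested and a median log2 fold change of −0.02, which was 0.02 without WT replicate 3. None passed in limma. The groups did not overlap in 6 that were lower and 5 that were higher (20.7% and 17.2%, against 11% and 12.5% of all genes). Ccnt2, a cyclin of the elongation kinase P-TEFb, was at 3705 and 2760 normalized counts in DKO and at 1755, 2253 and 1342 in WT (log2 fold change 0.87 ± 0.26, adjusted p = 0.823). Aff4, the scaffold of the super elongation complex, was at 10667 and 10981 in DKO and at 7206, 7701 and 5685 in WT (0.67 ± 0.21, adjusted p = 0.823). Cpsf1, a cleavage and polyadenylation factor, had a log2 fold change of −0.49 ± 0.23, or −0.30 without DKO replicate 1, and Zc3h8 of the little elongation complex one of 0.53 ± 0.33, or 0.29 without DKO replicate 2.

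Secretory pathway genes had lower means in DKO in 45 of 59 tested, against 49.95% of all genes. The list mixes genes known from the XBP1 program with others of the same machinery, and these were not separated. Higher means numbered 14, and the median log2 fold change was −0.13. None passed the adjusted threshold in limma. Non-overlapping groups numbered 13 lower and 2 higher (22.0% and 3.39%, against 11% and 12.5% of all genes). At an unadjusted p under 0.05 there were 5 lower and 1 higher (8.47% and 1.69%, against 2.37% and 3.69% of all genes). Pdia4, a disulfide isomerase, averaged 998 ± 90.6 normalized counts in DKO and 1691 ± 202 in WT (SD, n = 2 and 3), or −0.76 ± 0.20 on the log2 scale (limma, adjusted p = 0.823). Hyou1, a chaperone of the endoplasmic reticulum, was at 1570 and 1640 in DKO and at 2122, 2277 and 2651 in WT. Txndc5, a thioredoxin-like isomerase, was at 1529 and 1750 in DKO and at 3029, 2069 and 2397 in WT. Srp14, a subunit of the signal recognition particle, was at 242 and 270 in DKO and at 399, 360 and 449 in WT. With any 1 library left out, lower means numbered between 40 and 47 of 59. The median moved to −0.23 without DKO replicate 2, −0.26 without WT replicate 2 and −0.08 without WT replicate 3.

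**Figure D4:**
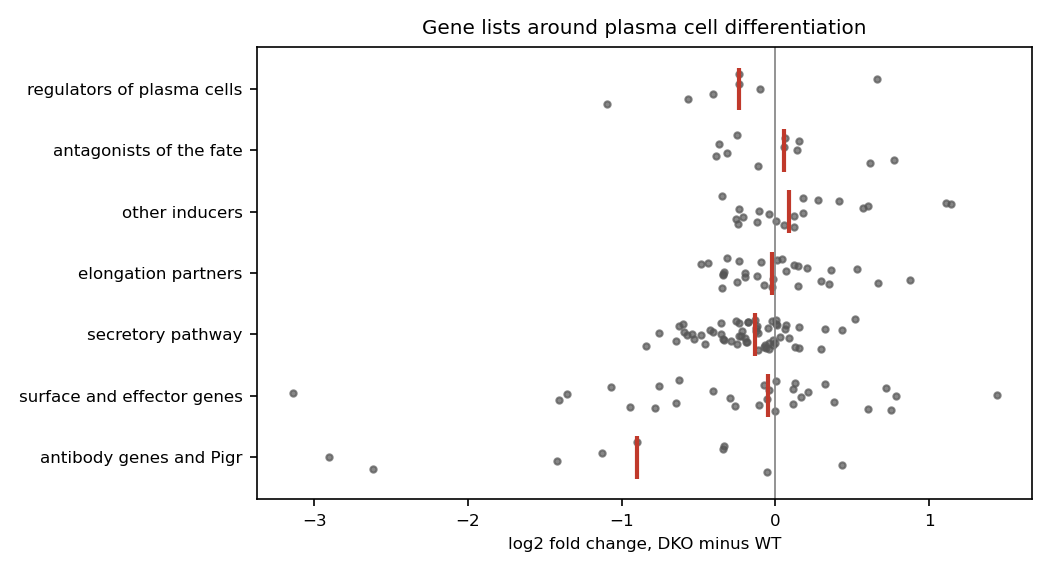
Log2 fold change of DKO minus WT (x axis) of each tested gene (points) in 7 lists (rows), with the median of the list as a red line. The medians of the secretory pathway and of the antibody genes with Pigr lie at −0.13 and −0.90, and the other inducers have theirs at 0.09.

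Surface and effector genes of plasma cells had 17 lower and 13 higher means among 30 tested, none of which passed in limma, and their median log2 difference was −0.05. That median was −0.21 without DKO replicate 1, −0.09 without WT replicate 3 and 0.0031 without WT replicate 1. Derl3, Edem1, Mzb1 and Sec11c of this list also belong to the secretory list. Chst1, a sulfotransferase gene, was at 14.0 and 0.826 normalized counts in DKO and at 121, 16.5 and 45.2 in WT (log2 fold change −3.14 ± 1.11, adjusted p = 0.823), and its log2 fold change was −1.62 without DKO replicate 2. Fcrl5, an Fc receptor-like surface gene, was at 112 and 68.6 in DKO and at 178, 241 and 113 in WT. Derl3, a degradation factor of the endoplasmic reticulum, was at 150 and 180.1 in DKO and at 292, 270.3 and 209 in WT. Glcci1, a glucocorticoid-induced gene, had a higher mean in DKO, at 350.3 and 141 in DKO and 84.6, 157 and 40.4 in WT, with overlapping groups. The sister receptors of BCMA were abundant in both genotypes, and the genes of their ligands, Tnfsf13 and Tnfsf13b, were under the minimum for testing. Tnfrsf13c, the BAFF receptor, averaged 15223 ± 1261 in DKO and 15713 ± 714 in WT (SD, n = 2 and 3), and Tnfrsf13b, the gene of TACI, 2751 ± 288 in DKO and 2852 ± 1152 in WT. Their log2 fold changes were −0.05 ± 0.20 and 0.04 ± 0.34 (adjusted p = 0.973 and 0.988). The value of Tnfrsf13b was −0.34 without WT replicate 1 and 0.30 without WT replicate 2, and with any 1 library left out that of Tnfrsf13c lay between −0.13 and 0.04.

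Genes with the most similar pattern to each member were found by the root mean square difference of centred log2 levels over the 5 libraries, among 10816 protein-coding genes. For Prdm1 they were Ranbp17 (0.14), Bmpr1a (0.19) and Dnm3 (0.21), all highest in WT replicate 1. Bmpr1a, a receptor for bone morphogenetic proteins, was at 271 and 259 normalized counts in DKO and at 1513, 282 and 328 in WT. For Irf4 they were Pigp (0.07), Cwf19l2 (0.09) and Rmdn1 (0.09), and for Xbp1 Eif3b (0.014), Parp1 (0.04) and Akt1 (0.05). Ell2 was closest to Dnajc3 (0.017), a co-chaperone of the secretory list, then to Nmral1 (0.03) and Ndufs4 (0.03). Jchain was closest to Nusap1 (0.04), Cenpk (0.05) and Eif2s1 (0.05), the first of which encodes a spindle protein and the next a centromere protein. Eaf2 was closest to Pot1b (0.07), Lmf1 (0.10) and Zfand5 (0.12). For Sdc1 the list was Klf2 (0.20), Heatr9 (0.24) and Lpar6 (0.24), where Klf2 is the factor that marks naive and recirculating B cells. With 5 libraries many genes share such a pattern, and these distances describe the libraries only.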

How the data were processed

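The authors deposited 1 table with a normalized signal per gene and library, in effect scaled read counts: at least 99.9947% of the nonzero values of a library came out whole (tolerance 0.01) after division by its smallest nonzero value, which recovers the reads. CASAVA 1.8.2, TopHat2 2.0.4, Cufflinks 2.0.2 and mm9 are named in the submitters' processing notes. How reads were counted and scaled, with which annotation and whether by strand, is not stated in those notes or labels. Per the labels' protocols, RNA of the sorted cells was amplified before library sequencing.

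Genes with a mean of at least 10 were tested with limma 3.58.1 (R 4.3.3, mean-variance trend) on log2(value + 1), DKO minus WT, over all 13242 genes, two-sided, with Benjamini-Hochberg adjustment at 0.05. This scale understates the change of low genes. The fit had 3 residual and 5.92 prior degrees of freedom. Intervals use the same fit. Alternatives were the recovered reads in edgeR 4.0.16 and in DESeq2 1.42.0, other pseudocounts, minima and scalings, a replicate block, a T cell covariate and left-out libraries. Of these steps only the limma fit was tried on simulated data.

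The members, lists and tests were chosen with earlier results of these data known. By rule, the genes named are all members, Relb and Nfkb2, the 4 genes of smallest p per list (all of a list with 5 or fewer tested), the antagonists, and the 3 genes of nearest pattern per member. Others are named outside this rule, among them Ighm, Ighg1, Igkc, Rgs13, Cd2, the neighbours of Eaf2 and genes high in WT replicate 1. Of the names, 37646 matched the reference tables. Names that occur more than once covered 408 rows. For Golgb1 and Ebf1, which are among them, the first row was used. Exon lengths and gene order are from GENCODE M21, upstream regions from RefSeq GRCm38.p6. Listed genes with no row here were not analysed.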

Additional observations from a re-analysis of the deposited data

How the results depend on the processing

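No member had an adjusted p under 0.05 in any of the 17 alternatives, and the lowest was 0.527, for Irf4 with the T cell covariate. Of 118 member values, 115 kept the direction of the log2 fold change. The 3 that did not were Sdc1 without DKO replicate 2 (0.95) and without WT replicate 2 (0.77), and Jchain without DKO replicate 1 (0.0266). With libraries left out in turn Sdc1 ranged from −1.15 to 0.95 and Jchain from −0.50 to 0.0266, while Prdm1 ranged from −1.63 to −0.20. Over all genes 0 passed in limma, 3 with the T cell covariate, 29 in DESeq2, and between 0 and 1 with 1 library left out. The cause was not tested. With the replicate number as a block, which leaves 1 residual degree of freedom and takes WT replicate 3 out of the comparison, 36 genes passed, none of them a member. Prdm1 was at −1.46 (adjusted p = 0.603) and Irf4 at −0.82 (adjusted p = 0.761) in that fit. Deviations of same-numbered libraries from their group means had correlations across genes of 0.005 and −0.28. With 2 DKO libraries these deviations mirror each other, so the correlations cannot decide whether the numbers pair the libraries. Without both WT replicate 2 and DKO replicate 1, 1 DKO library remains and is assumed to vary like the rest; Prdm1 was then −1.49, Irf4 −0.74, Xbp1 −0.32 and Eaf2 0.39. A single DKO library says nothing of the spread within DKO.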

Other observations

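WT replicate 1 stood above the next library in Prdm1 by 5.67 times (each value plus 1), a gap that 20 of 13242 tested genes, Prdm1 included, reached or exceeded in that library. The set was looked up after the values of Prdm1 had been seen. It holds the heavy chain genes Igha and Ighg2c, and Prg2, the eosinophil major basic protein gene that also served as a plasma cell effector gene here, at 5.25 and 2.48 normalized counts in DKO and 87.8, 0 and 9.61 in WT. It also holds the homeobox genes Hoxa5 and Hoxa7 and the kinase receptor gene Ephb2, none of which was in a list. Hoxa7 was at 0 in both DKO libraries and at 68.5, 2.06 and 7.69 in WT. Adgrl2, an adhesion receptor gene, was at 56.0 and 22.3 in DKO and at 541, 80.5 and 61.5 in WT. Fam135a was at 38.5 and 62.8 in DKO and at 1048, 166 and 135 in WT. Sdc1 had 2 reads in WT replicate 1, beside 4 in DKO replicate 2 and 8 in WT replicate 3, all near the limit of detection. Tnfrsf17 had 6 reads in WT replicate 1 and 0 in every other library. Of the 7 members tested, 3 were highest in WT replicate 1 (Prdm1, Ell2 and Jchain). Irf4, Xbp1, Sdc1 and Eaf2 were highest in other libraries.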
